A study of Rattus norvegicus with 3 samples.

Results

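The amylase genes of the rat were followed across its 3 major salivary glands. Each gland of male Wistar rats, 10 weeks old, gave 1 Agilent array, on which its Cy3-labelled RNA was measured; no treatment is named in the labels. The design text speaks of 3 rats, and which animal or animals an array stands for is not stated. Probes were taken where the gene name in the scanner files begins with Amy and a digit, or where the description gives amylase as the product. This gave 4 of 41012 probes, or 4 of 35752 gene names, named Amy1, Amy2, Amy2_predicted and LOC499693 in the files, each printed as 1 spot. Of 7 descriptions holding the letters "amylase", the other 3 were 2 transcarbamylase probes and 1 maltase-glucoamylase probe; the last is described apart, because that enzyme is an alpha-glucosidase of another family.

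Alpha-amylase cuts the internal alpha-1,4 bonds of starch and glycogen and is secreted into saliva and pancreatic juice. In rodents Amy1 encodes the enzyme of the parotid gland and, at a lower level, the liver, and the Amy2 genes encode the enzyme of the pancreas. Acinar cells of the parotid store it in zymogen granules and release it on autonomic stimulation, while the sublingual gland is mostly mucous, with serous cells in demilunes.

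With 1 array per gland there were no replicates, no test was made and no p-value is given; the number of arrays limits the precision. All 3 arrays came from 1 slide and 1 scan. Between 52.8% and 55.2% of probes were well above background on an array, and no spot was saturated. Probes with at least 3 spots on an array had a median SD between spots of 0.077 to 0.084 on the log2 scale, which for a difference between arrays gives 0.11 and covers neither animals nor labelling. The glands were checked against their usual markers. Of 8 mucous markers, 7 were above the parotid by 4-fold or more on the submandibular array, and 6 of 7 compared were so on the sublingual array (background 2.45% and 2.55% of all probes). Products of the granular convoluted ducts are a hallmark of the male submandibular gland, and 10 were probed. On the array with the submandibular label, 8 were compared with the parotid and 6 with the sublingual gland. None exceeded either by 4-fold (background 2.45% and 0.0736% of all probes), which says little for a list this short. Smr3b was well above background on that array alone, so its 1.62-fold and 2.11-fold are lower bounds and do not exclude 4-fold. With its identity not settled by these products, that array is called submandibular-labelled, and its group was kept. Of all probes at least 4-fold apart, the share favouring the submandibular-labelled gland over the parotid was 45.6%, and 63.5% after centring on the median; for sublingual against parotid it was 49.2% and 63.0%.

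The 4 amylase probes lay together on chromosome 2, all on the minus strand, within 226.0 kb of the rn4 assembly that the files use. The Amy1 probe, for salivary amylase (NM_001010970), lay at chr2:209553111-209553263. The Amy2 probe, for pancreatic amylase (NM_031502, now named Amy2a3 in RefSeq), lay at -81.7 kb from it, at chr2:209471415-209472615. Amy2_predicted lay at chr2:209437274-209441675 and LOC499693 at chr2:209327304-209327363. Amy2_predicted (XM_345278) is ambiguous by name: its symbol points to amylase 2 and its description to salivary amylase, and it matched no RefSeq gene. LOC499693 is described as similar to pancreatic amylase and is a pseudogene, Amy2-ps2, in RefSeq. The first 3 probes spanned 153, 1201 and 4402 bases of genome, against 60 bases for 79.9% of all probes with coordinates, so their ends lie apart in the genome, as with a probe across a splice junction; the LOC499693 probe spanned 60 bases. The files place the probes at bases 1075, 1080, 1064 and 1253 of their transcripts, and the exon or UTR of each was not examined. RefSeq (assembly GRCr8) lists 5 genes named or once named as amylase on this chromosome, 3 of them protein-coding and 2 pseudogenes, and 1 of the coding ones, LOC103689940, was matched by no probe. Amylase gene copies can be nearly identical, so the probes may share signal and are not independent readings.

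The promoter windows of the 3 coding genes show how far the salivary and pancreatic types differ at their starts. The 150 bases before the RefSeq start site (GRCr8, minus strand) are given 5′ to 3′, with capitals for TATAAA and CANNTG on either strand. Amy1 was read from chr2:204085911-204086060, Amy2a3 from chr2:204014413-204014562 and LOC103689940 from chr2:204041924-204042073.
Amy1: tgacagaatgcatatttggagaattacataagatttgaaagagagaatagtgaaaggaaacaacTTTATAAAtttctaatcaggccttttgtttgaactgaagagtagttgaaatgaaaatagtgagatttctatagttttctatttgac
Amy2a3: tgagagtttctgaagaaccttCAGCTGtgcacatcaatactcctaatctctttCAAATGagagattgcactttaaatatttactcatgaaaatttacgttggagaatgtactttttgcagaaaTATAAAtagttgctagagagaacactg
LOC103689940: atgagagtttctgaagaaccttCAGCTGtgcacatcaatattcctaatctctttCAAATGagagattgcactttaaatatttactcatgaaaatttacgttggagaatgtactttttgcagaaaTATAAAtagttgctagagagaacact

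Over the 250 bases before the start, Amy2a3 and LOC103689940 were 98.8% identical when aligned, and Amy1 was 41.3% identical to Amy2a3. The alignments allowed gaps and no level for unrelated windows was computed, so the 41.3% does not show shared sequence. A TATAAA began 27 bases before the start of Amy2a3 and 26 bases before that of LOC103689940. In Amy1 it began 84 bases before the RefSeq start and overlapped its reverse complement, which began at 86. Both Amy2-type windows held CAGCTG and CAAATG, copies of the E-box pattern CANNTG, and the Amy1 window held no CANNTG. None of the 3 held TTTCCC, nor therefore TTTCCCA, which contains it. Both strands were searched, and among all 33469 RefSeq windows of this length, 12.9% held TATAAA, 65.5% CANNTG, 22.0% TTTCCC and 7.1% TTTCCCA. A match of letters is not a bound site, and Amy1 of the mouse is known to be read from more than 1 promoter, so the window shown belongs to the RefSeq start alone.

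All 4 amylase probes were far higher in the parotid than in either other gland. The processed signal of the Amy1 probe was 322000 in the parotid, 419 in the submandibular-labelled and 1080 in the sublingual gland, with a scanner error of 10.0% on each. Relative to each array's 75th percentile, the log2 levels were 10.76, 0.88 and 2.15. The parotid level was therefore 942-fold above the submandibular-labelled and 391-fold above the sublingual one, and the sublingual level lay between the other two. Put as a share of the parotid level, Amy1 stood at 0.106% (submandibular-labelled) and 0.256% (sublingual), yet both spots were well above background.

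The Amy2 probe, for the pancreatic gene, was bright in the parotid and near the background elsewhere. Its signals were 41400 in the parotid, 4.21 in the submandibular-labelled and 10.1 in the sublingual gland, the last with a scanner error of 4.09. Neither of the low readings was well above background, and the first was a surrogate value set by the scanner software. The lowest probe that was well above background read 19.1 and 18.3 on these arrays. Against those limits parotid Amy2 exceeded the submandibular-labelled reading at least 2657-fold and the sublingual reading at least 2968-fold, and no fold is given between the last 2.

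Amy2_predicted and LOC499693 repeated the order of Amy1. Amy2_predicted read 225000, 490 and 1320 in the same order of glands. That is 563-fold and 224-fold higher in the parotid. LOC499693, the pseudogene probe, read 197000, 172 and 478, or 1404-fold and 541-fold higher in the parotid. The smallest of these differences was -7.80 on the log2 scale, for Amy2_predicted on the sublingual array. It was far larger than the repeat-spot SD of 0.11, which covers neither animals nor labelling.

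**Figure D1:**
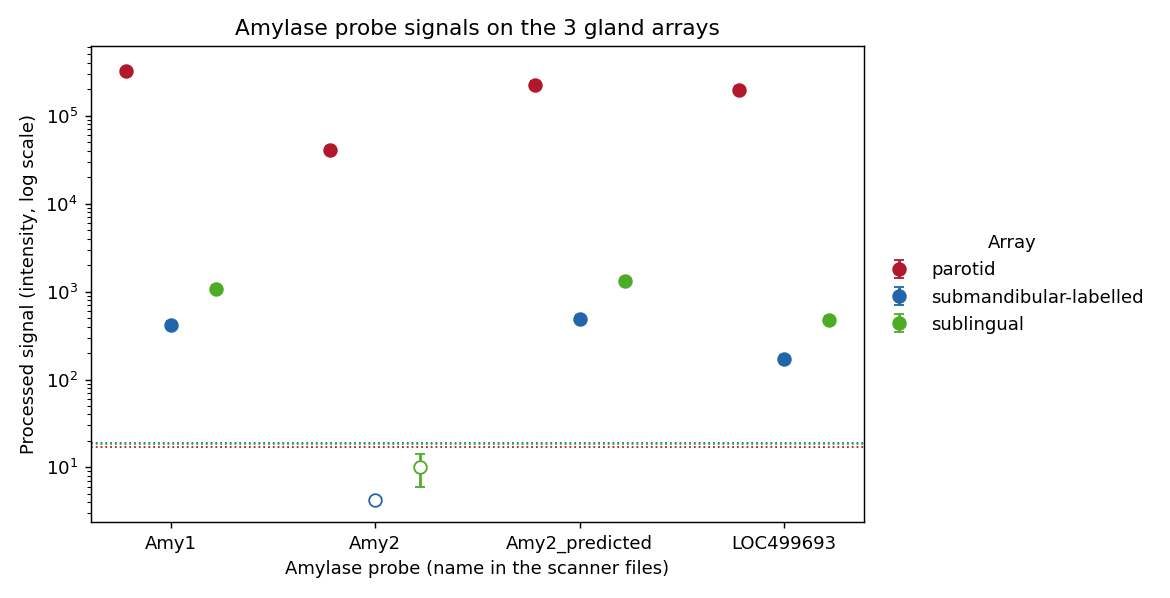
Processed signal (log axis) of the 4 amylase probes on the 3 arrays, 1 spot per point. Bars are the scanner's error (about 10.0% and hidden by the points where signals are high, none drawn for the surrogate value), open points are not well above background, and dotted lines mark the lowest probe that is, at 17.2, 19.1 and 18.3; parotid signals run from 41400 to 322000, and Amy2 falls below the line in both other glands.

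So all 4 probes passed 4-fold in favour of the parotid in both comparisons, as did 2.93% of 23952 probes compared with the submandibular-labelled array and 2.63% of 24234 compared with the sublingual array. Against both at once the share over all probes was 2.17%. Counting each probe itself, 12 probes of the array fell at least as far as Amy1 from parotid to submandibular-labelled gland and 15 from parotid to sublingual gland. Both comparisons use the 1 parotid array. The median over the 4 probes, with the bounds for Amy2, was -10.17 against the submandibular-labelled and -8.85 against the sublingual gland, beside 0.0 and 0.02 over all compared probes. In RNA from whole glands, fewer amylase-making cells and less amylase RNA per cell cannot be told apart.

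The probes differed among themselves in the size of the parotid excess. Among the 3 measured on both sides, LOC499693 showed the largest excess, then Amy1, then Amy2_predicted, a range of 1.32 on the log2 scale against the submandibular-labelled array and 1.27 against the sublingual array. That order held in 8 of 8 processing settings for both comparisons. Only normexp, the mean signal and quantile normalization could have changed it. Median centring moves all probes of a pair equally, and the other alternatives leave these values nearly as they were. The lower bound for Amy2 lay beyond all 3 measured values in the main processing. It no longer did in 2 of the 8 settings against the submandibular-labelled array and in 1 against the sublingual array: with the mean signal and no background correction it dropped to 286-fold and 302-fold, and with normexp correction its log2 bound of -9.32 against the submandibular-labelled array was passed by Amy1 and LOC499693.

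The sublingual gland had more amylase signal than the submandibular-labelled gland. These 2 arrays were otherwise much alike. Over 19873 probes well above background on all 3 arrays, their Pearson correlation was 0.989. With the parotid it was 0.924 (submandibular-labelled) and 0.926 (sublingual). Amy1 was 2.41-fold higher, Amy2_predicted 2.52-fold and LOC499693 2.60-fold, or 1.27, 1.33 and 1.38 on the log2 scale. The 3 values lay within 0.11 of each other, but the probes may share signal and are not independent readings. Each was larger than the repeat-spot SD of 0.11, which covers neither animals nor labelling. The scanner error was 10.0% to 10.3% on each of these spots. Among all 23108 compared probes, 1.69% were higher by 2-fold or more. The size depended on background correction: LOC499693 fell to 1.88-fold with the uncorrected mean signal, and in the other 7 of 8 settings all 3 stayed at least 2-fold higher. Of those settings, the deposited table, outlier spots kept and no bound leave these values nearly unchanged.

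**Figure D2:**
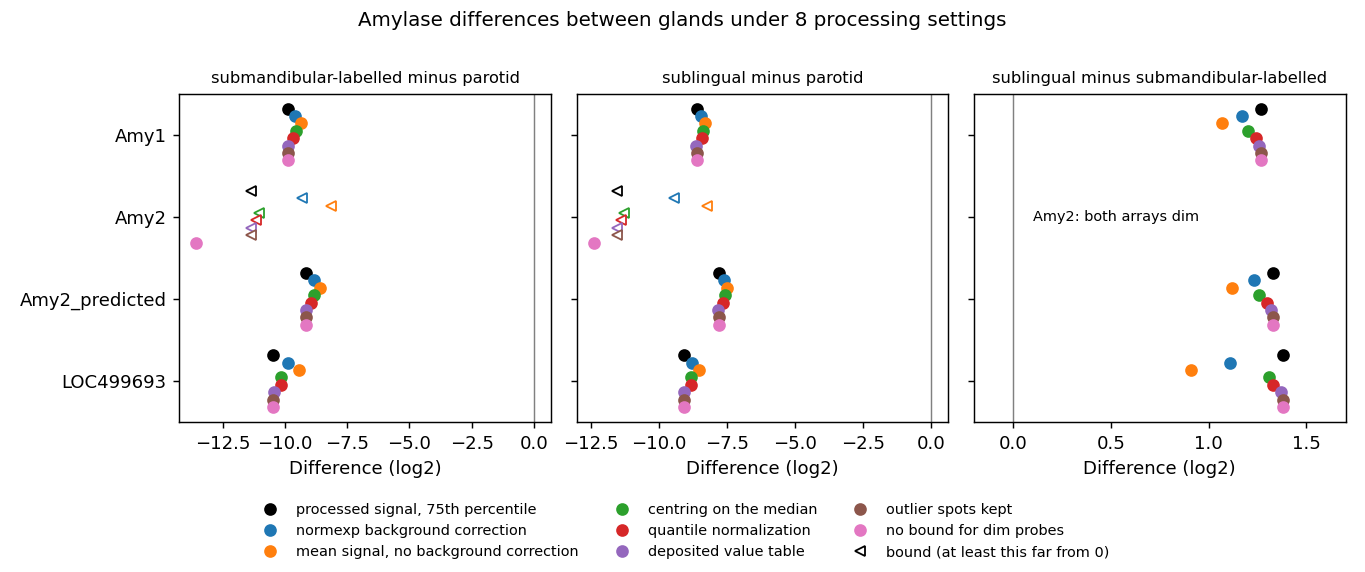
Log2 difference of each amylase probe for each pair of arrays (1 panel per pair) under 8 processing settings (colours); open triangles are bounds. Amy1, Amy2_predicted and LOC499693 keep their order against the parotid in every setting, Amy2 moves most (from -13.56 to -8.16 in the first panel), and the sublingual excess in the last panel runs from 0.91 to 1.38. Only normexp, the mean signal and quantile normalization could change that order.

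Other serous secretory products did not share 1 direction between these glands. Of 16 probed, 14 lay 4-fold or more below their parotid level in each of the other glands, as did 2.17% of all probes. The medians were -8.65 and -8.45, beside 0.0 and 0.02 over all compared probes. The list was chosen with earlier results of these data known. By the smaller of the differences from the parotid, the largest were those of the cystatin Cst5, the proline-rich protein genes Prp25l1 and Prp2, and Smr3a, the smallest of their values being at least 3145-fold for Prp2 against the submandibular-labelled array. Against that array alone Dnase1 differed most, at least 20024-fold. Between sublingual and submandibular-labelled gland, 7 of 13 compared were higher and 6 lower, with a median of 0.16 beside 0.01 over all probes. At least 4-fold higher were 2 (background 0.147%) and at least 4-fold lower was 1 (background 0.0736%). The higher ones were Crisp3, of the cysteine-rich secretory proteins, at 7.59-fold and Dnase1, a secreted nuclease, at 22.9-fold or more. The lower one was Oprpn, a proline-rich salivary protein, at 4.87-fold. Outside the rule for named genes, Lpo, the peroxidase of saliva, was 1.99-fold lower and Bpifa2, the parotid secretory protein, 1.93-fold lower. So amylase was higher in the sublingual gland, while other products far higher in the parotid lay on either side of 0. Crisp3 and Dnase1 lay above, and Oprpn and Prb3 below. The 13 compared also include Lyz2 and Prp15, which were at most 2.33-fold higher in the parotid. Of the 7 higher, Agt, Dnase1, Prp25l1 and Smr3a are lower bounds. Carry-over between glands was not tested.

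**Figure D3:**
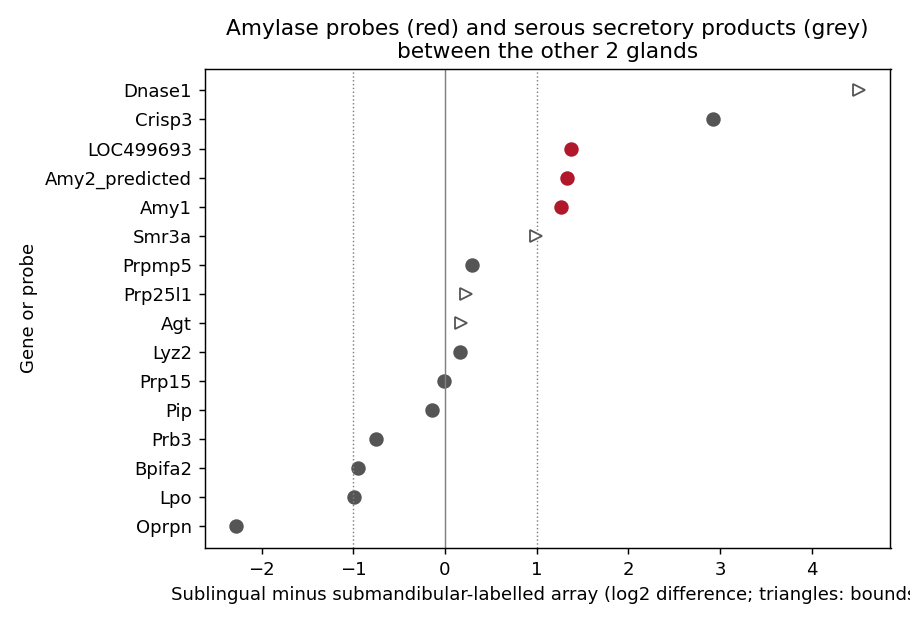
Sublingual minus submandibular-labelled difference (log2) of the 3 amylase probes measured on both arrays (red) and of 13 serous secretory products (grey); triangles are bounds and dotted lines mark 2-fold. The amylase probes sit close together from 1.27 to 1.38, while the other products run from -2.28 for Oprpn to at least 4.52 for Dnase1.

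The genes whose pattern over the 3 arrays was most like that of amylase were sought among 11802 probes of named genes well above background on all 3. Likeness was the root mean square distance between log2 levels, each centred on the probe's own mean. The nearest to Amy1 were Pip, prolactin-induced protein of saliva (0.61), Crisp3 (0.69), Lynx1, a membrane-anchored modulator of nicotinic receptors (0.78), Prb3, a proline-rich glycoprotein (0.84), and Fam174c (0.87). LOC499693 at 0.25 and Amy2_predicted at 0.37 were nearer than any of these. The step between the other glands varied among them: sublingual minus submandibular-labelled was -0.14 for Pip, 2.92 for Crisp3, -0.06 for Lynx1, -0.75 for Prb3 and 0.55 for Fam174c, against 1.27 for Amy1. For Amy2_predicted the nearest were Fam174c (0.55), Lynx1 (0.60), Pip (0.62), Crisp3 (0.83) and Mtus1, a microtubule-associated protein (0.85); of the amylase probes Amy1 was nearer at 0.37, but LOC499693 at 0.61 lay behind Fam174c and Lynx1. For LOC499693 they were Crisp3 (0.64), Pip (0.77), Aplnr, the apelin receptor (0.84), Prb3 (0.95) and Zfp831 (0.98). With 3 arrays this is a description only.

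Neighbouring probes on the chromosome differed less between glands. Within 1 Mb of the amylase probes lay 12 other probes, of which 7 were not well above background on any array. The probe ENSRNOT00000023228, which lies between LOC499693 and Amy2_predicted on the other strand, had log2 levels of -2.33, -2.22 and -2.78 in parotid, submandibular-labelled and sublingual gland, a difference from the parotid of 0.11 and -0.46. Of the 5 well above background on at least 1 array, 1 was higher in the parotid than in both other glands by 4-fold or more. Over all compared probes the share was 2.17%, and a count among 5 says little. That probe was named after its values were seen. It targets the expressed sequence tag AI454692, 48.9 kb above the Amy1 probe and on the same strand, at chr2:209602058-209602117 (rn4). Its levels were 0.65, -2.64 and -1.84, or 9.77-fold and 5.59-fold higher in the parotid, with the sublingual gland 1.75-fold above the submandibular-labelled one. The next probe, ENSRNOT00000023366, was at 1.06, -0.49 and -0.53, 2.94-fold and 3.01-fold higher in the parotid.

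**Figure D4:**
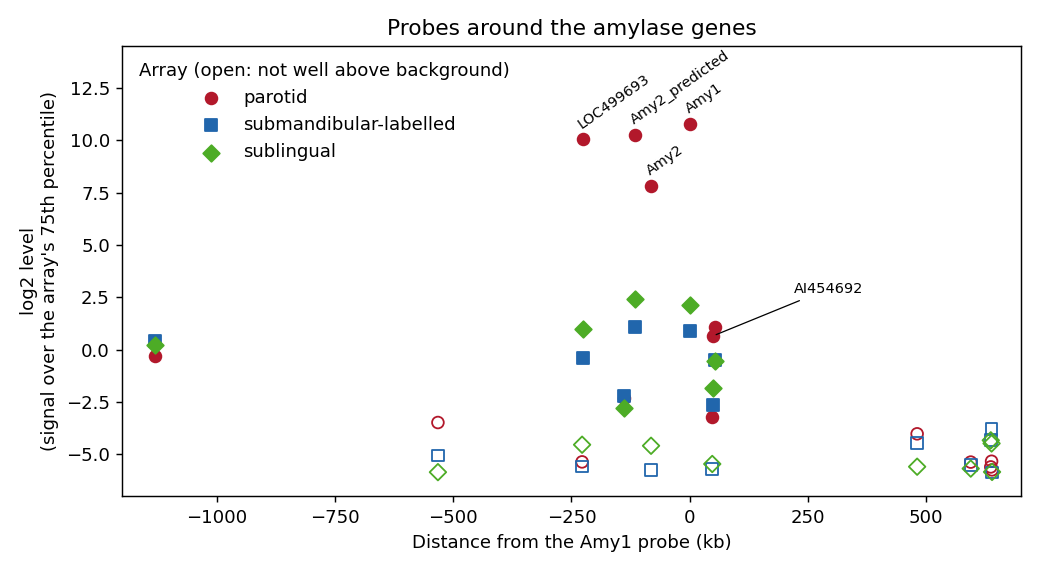
Log2 level (signal over each array's 75th percentile) of the 16 probes around the amylase genes against distance from the Amy1 probe in kb; open symbols are not well above background. Amy1 goes from 10.76 in the parotid to 0.88 and 2.15 on the other arrays, and the neighbour AI454692 from 0.65 to -2.64 and -1.84.

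Most other pancreatic digestive enzymes gave no reading well above background in any gland. Of 26 probed pancreatic enzymes and granule proteins, 8, 10 and 8 were well above background on the parotid, submandibular-labelled and sublingual arrays. Over all probes the shares were 54.9%, 52.8% and 55.2%. Not well above background on any array were 16, among them the defining products Cpa1, Prss1, Cela2a and Pnlip. These are a carboxypeptidase, a trypsin, an elastase and a lipase. Others of the same kinds were well above background on all 3 arrays: the trypsin Prss2 at -0.41, -1.35 and -1.44 (parotid, submandibular-labelled, sublingual), the lipase Cel at -1.61, -2.63 and -2.09 and the phospholipase Pla2g1b at -1.23, -1.52 and -2.05. Of 10 compared on the submandibular-labelled array, 2 lay 4-fold or more below and 1 above the parotid (background 2.93% and 2.45%). Of 9 on the sublingual array it was likewise 2 and 1 (background 2.63% and 2.55%). The medians were -0.72 and -1.03, beside 0.0 and 0.02 over all compared probes. The lower ones were Rnase1, a secreted ribonuclease (5.70 in the parotid, 1.41 and 1.37), and Zg16, a zymogen granule lectin (-0.55, -2.72 and -2.93). Zg16 no longer passed 4-fold in both comparisons with normexp (-1.01 and -1.16), the mean signal (-0.68 and -0.76) or centring on the median (-1.86 and -2.13). The higher one was Gp2, the main membrane glycoprotein of zymogen granules, not well above background in the parotid and at 1.99 and 1.78 elsewhere. Ctrb1, chymotrypsinogen B, was measured on all 3 arrays at 1.55, 0.46 and 0.58. Whether the signal of the Amy2 probe came from Amy2a3 or from the other copies cannot be told from these probes.

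Of 10 transcription factors of acinar cells probed, 6 were compared on each array, with medians of -0.35 and -0.53. None passed 4-fold, which at the shares over all probes (2.93% and 2.63% below the parotid) says little for a list this short. Bhlha15, or Mist1, which sustains the secretory acinar state, was at 5.14 (parotid), 3.74 (submandibular-labelled) and 3.35 (sublingual), which is 2.65-fold and 3.48-fold below the parotid. Foxa2, a forkhead factor, was well above background in the parotid alone, so its differences of at least 1.38-fold and 1.54-fold are bounds and do not exclude 4-fold; Rbpj, the Notch effector, was at -0.11, -0.41 and -0.55. Rbpjl, a partner of Ptf1a in the complex that drives pancreatic enzyme genes, was at -2.53, -2.93 and -4.26, the last not well above background. Ptf1a itself was not well above background on any array. Between the submandibular-labelled and sublingual arrays 5 factors were compared. All 5 were lower on the sublingual array, with a median of -0.39 beside 0.01 over all probes. Bhlha15 fell by 0.39, as the list did, while the amylase probes were higher there.

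Enzymes and transporters that complete carbohydrate digestion, many of them at the intestinal brush border, were measured in part. The maltase-glucoamylase probe read 3.47, 3.86 and 7.59 on the parotid, submandibular-labelled and sublingual arrays and was not well above background on any. Of 8 further genes probed, 4 were likewise not well above background on any array: the disaccharidases Lct and Si and the sugar transporters Slc2a2 and Slc5a1. Of the 4 compared, 1 lay 4-fold or more under its parotid level in the submandibular-labelled gland and none did in the sublingual gland. That gene was Slc2a5, the fructose transporter, at -0.67, -2.76 and -2.40. Over all probes the shares were 2.93% and 2.63%, so counts among 4 genes say little. Gaa, the lysosomal alpha-glucosidase, was at 2.70, 4.05 and 3.62, highest where amylase was lowest. Treh, trehalase, was at -3.05, -2.99 and -3.79, the last not well above background.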

How the data were processed

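The values are deposited intensity signals of 3 Agilent arrays (design 014879), extracted, per the file headers, with Feature Extraction 10.1.1.1 (protocol GE1-v5_10_Apr08, build rn4), from 500 ng of RNA per array, per the labels' protocols. The authors' table gives, for every spot, a linear ratio. Set against the scanner files, each of its columns is the processed signal over a constant (190, 236 and 250), within 0.0142 on the log2 scale for signals above 1000, so its scale and direction are settled; its medians are 0.152, 0.122 and 0.128. The other deposited columns used include the mean signal, local background and scanner error of each spot. Flags per spot were also used, with the surrogate signal where one was set.

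The main value is log2 of the processed signal less the 75th percentile of its array (186, 228 and 244 in signal). Control spots and outlier spots (68, 79 and 73) were left out. For a probe dim on 1 array of a pair, the fold is taken against the higher of the dim probe's own level and the lowest level well above background (-3.43, -3.58 and -3.74), and is a lower bound. A gene of a list is its probe with the highest mean level. The values of 1 list gene are not reported here. RefSeq names (GRCr8) matched 20410 of 41012 probes. Named genes are the amylase probes, from each list up to 4 with the largest smaller difference from the parotid, Bhlha15, Ptf1a and Spib when probed, and the 5 genes nearest in pattern to each amylase probe; the others named were chosen after their values were seen. The members and lists were chosen with earlier results of these data known. The counting of probes at least 4-fold apart was tested on simulated data. All probes changed there were well above background, so the lower bounds were not tested. Tools were Python 3.11.15, numpy 2.4.6, pandas 2.3.3, Biopython 1.88, matplotlib 3.10.9, R 4.3.3 and limma 3.58.1 (normexp, offset 50). The alternatives were normexp, the uncorrected mean signal, median centring, quantile normalization, the deposited table, outlier spots kept, no bound, other thresholds and filters, and genes or probe medians.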

Additional observations from a re-analysis of the deposited data

How the results depend on the processing

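No amylase value changed direction under any of the 7 processing alternatives. Of 77 single-probe values, 39 moved by less than the repeat-spot SD of 0.11 and 38 by more. Many of the 39 could hardly move. The deposited table is the processed signal over a constant, no amylase spot was an outlier, and dropping the bound touches Amy2 alone. Under normexp, the mean signal, median centring and quantile normalization, most values moved by more than 0.11. Amy1 ranged from 653-fold to 942-fold against the submandibular-labelled array and from 313-fold to 393-fold against the sublingual array. No paired analysis was possible because each gland has 1 array. Centring on the median subtracts a different constant from each array. It moved Amy1 from -9.88 to -9.57 and from -8.61 to -8.37 on the log2 scale, and the other probes by similar amounts. The cause of the changes under the other alternatives was not tested. Low signal limits the Amy2 probe most, since its folds rest on the background.

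The median over the amylase probes was -9.46, -8.60 and 1.17 with normexp (submandibular-labelled minus parotid, sublingual minus parotid, sublingual minus submandibular-labelled; main values -10.17, -8.85 and 1.33), -8.98, -8.27 and 1.07 with the mean signal, -9.86 and -8.60 with median centring and -9.91 and -8.63 with quantile normalization for the first 2.

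Counts of all probes at least 4-fold higher and lower were 588 and 701, 618 and 637, and 34 and 17 for the same pairs. They became 322 and 250, 340 and 245, and 14 and 8 with normexp; 225 and 160, 249 and 161, and 5 and 4 with the mean signal, where 55.6% of the last were higher in place of 66.7%. The share higher for the first 2 pairs was 56.3% and 58.1% with normexp and 58.4% and 60.7% with the mean signal. With no bound, 1332 were lower in the first pair, 952 higher and 1115 lower in the second, and 119 higher and 39 lower in the third. At 2-fold they were 2304 and 3115, 2705 and 3054, and 391 and 128, and at 10-fold 174 and 210, 176 and 212, and 15 and 7. Among probes well above background on both arrays, 438 and 419 were lower in the first 2 pairs, and 17 higher and 9 lower in the third.

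Among the lists, the pancreatic genes counted as 4-fold below the parotid, in both comparisons at once, went from 2 to 1 with normexp, the mean signal and median centring, where Zg16 was lost. The transcription factors went from 0 to 1 with no bound (Foxa2, -2.09 and -2.78) and with 2-fold, and the carbohydrate genes from 0 to 1 with 2-fold.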
